A study of Mus musculus with 12 samples.

Results

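The expression of 10 genes that make or remodel phosphatidylcholine and phosphatidylethanolamine was followed in mouse liver at opposite ends of the day and with or without a fiber product. The genes were taken by symbol from a table of 23849 gene symbols, and the list comprised Chka, Chkb, Etnk1, Etnk2, Pcyt1a, Pcyt2, Chpt1, Cept1, Pemt and Lpcat3. All 10 were found, and all 10 passed the filter on low values that left 9806 genes to be tested. The 12 livers came from male C57BL/6 mice (C57BL/6J background), 8 weeks old by the labels, that were fed a high-fat diet (HFD). By the study's text the diet lasted longer than the treatment, which filled its last 2 weeks. Vehicle (Cntrl, drinking water by gavage) or Libramed (the label's name for the product, which the study's text calls Policaptil Gel Retard, a complex of plant polysaccharides, also by gavage) was given for 2 weeks. Livers were collected at Zeitgeber time 0 (ZT0, lights on, the end of the active phase) or ZT12 (lights off, when mice start to eat). By the study's methods both gavages were given daily, shortly before lights off. Time of day and time since gavage therefore cannot be told apart in these livers. Each of the 4 groups held 3 biological replicates, and every mouse was on HFD, so a difference from a normal diet cannot be read from these livers. RNA was sequenced from whole tissue and each value is an FPKM, the fragments per kilobase of transcript scaled to the mapped fragments of the library.

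Phosphatidylcholine is the main phospholipid of liver membranes, of the surface of secreted lipoproteins and of bile, and phosphatidylethanolamine is its closest partner. Both are made from diacylglycerol by parallel branches of the Kennedy pathway, in which choline or ethanolamine is phosphorylated by a kinase, activated by a cytidylyl transferase and joined to diacylglycerol by a phosphotransferase. Hepatocytes hold a further route, in which Pemt methylates phosphatidylethanolamine to phosphatidylcholine with S-adenosylmethionine. Lpcat3 then exchanges fatty acyl chains on the finished phospholipid.

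The deposited values carry no read counts, so absolute depth is unknown and no counting interval could be given. The relative depth that the steps between low values imply ranged from 0.705 to 1.26 of the first Cntrl ZT0 library. All 8 hepatocyte markers examined were expressed, with Apoa1 between 20223 and 32458 FPKM and Ttr between 6123 and 9230 FPKM, whereas Alb was listed at 0 in all 12 libraries. The library Libramed ZT12 replicate 3 held skeletal muscle transcripts, with a summed level of 42.4 FPKM over 5 muscle markers against at most 0.0473 FPKM in every other library, and the results are given with and without it where it changed a call. Summed markers of liver endothelial cells were lower at ZT12 (12.7 to 21.9 FPKM in Cntrl and 19.99 to 21.9 FPKM in Libramed) than at ZT0 (24.8 to 34.4 FPKM and 32.3 to 40.2 FPKM), and all 5 tested endothelial markers were called lower over both treatments. Of 5 tested stellate cell markers, all 5 had negative fold changes and 4 were called lower, with sums of 30.0 to 46.7 FPKM in Cntrl and 24.5 to 43.2 FPKM in Libramed at ZT12 against 32.6 to 59.9 FPKM and 49.7 to 67.1 FPKM at ZT0. These markers moved along with the time differences given next, and their part in them was not tested. In bulk tissue, fewer cells of a type and less RNA per cell cannot be told apart.

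The rows of Chka and of the other members were unique to their genes except for Chkb. Its row carries the joined symbols of Chkb, of its neighbour Cpt1b (a muscle-type carnitine palmitoyltransferase) and of the readthrough transcript between them. In the GENCODE vM21 annotation of mm10, Chkb spans chr15:89426360-89429908 and Cpt1b chr15:89416405-89425863, both on the minus strand, so the Chkb value is that of the locus and the parts cannot be told apart. Chka lies at chr19:3851773-3894369 (plus strand, ENSMUSG00000024843.15), Etnk2 at chr1:133363572-133380336 (plus strand), Etnk1 at chr6:143167221-143232307 (plus strand), Pcyt1a at chr16:32430921-32475070 (plus strand) and Pcyt2 at chr11:120610087-120617936 (minus strand). Chpt1 lies at chr10:88452745-88504073 (minus strand), Cept1 at chr3:106502260-106547802 (minus strand), Pemt at chr11:59970614-60046489 (minus strand) and Lpcat3 at chr6:124663027-124704418 (plus strand).

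The 250 bases before a RefSeq start (GRCm38.p6) are shown for 3 of the genes that differed with time of day, Chka, Etnk2 and Pcyt1a, and for Cept1, which holds a match to a clock-related motif. Each runs 5′ to 3′ on the strand of the gene, at chr19:3851523-3851772 for Chka, chr1:133363322-133363571 for Etnk2, chr16:32430671-32430920 for Pcyt1a and chr3:106547626-106547875 for Cept1. Capitals mark a motif match, which is the sterol regulatory element TCACCCCAC in Pcyt1a and AACGTG, the reverse strand of the E-box variant CACGTT, in Cept1.
Chka: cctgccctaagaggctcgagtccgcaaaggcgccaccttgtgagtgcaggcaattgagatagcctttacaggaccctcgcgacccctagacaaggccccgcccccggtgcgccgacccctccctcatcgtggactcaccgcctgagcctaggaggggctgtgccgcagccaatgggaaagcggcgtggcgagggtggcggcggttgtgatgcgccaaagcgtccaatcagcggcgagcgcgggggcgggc
Etnk2: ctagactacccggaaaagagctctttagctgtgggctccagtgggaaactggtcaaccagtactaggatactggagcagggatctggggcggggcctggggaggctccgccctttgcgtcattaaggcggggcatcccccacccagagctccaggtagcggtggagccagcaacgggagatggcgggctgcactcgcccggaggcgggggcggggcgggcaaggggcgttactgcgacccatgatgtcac
Pcyt1a: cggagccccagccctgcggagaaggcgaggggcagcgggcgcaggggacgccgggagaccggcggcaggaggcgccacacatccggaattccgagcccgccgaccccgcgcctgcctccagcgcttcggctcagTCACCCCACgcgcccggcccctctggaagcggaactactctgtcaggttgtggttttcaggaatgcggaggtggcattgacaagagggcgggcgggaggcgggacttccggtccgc
Cept1: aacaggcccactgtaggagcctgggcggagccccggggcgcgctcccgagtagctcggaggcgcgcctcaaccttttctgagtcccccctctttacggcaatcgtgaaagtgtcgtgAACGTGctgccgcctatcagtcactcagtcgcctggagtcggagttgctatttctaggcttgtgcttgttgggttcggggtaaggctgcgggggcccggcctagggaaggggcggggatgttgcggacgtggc
Both strands were searched for the E-box CACGTG, the E-box variant CACGTT, the D-box TTATGTAA, the ROR element TAGGTCA, the sterol regulatory element TCACNCCAC and the cAMP response element TGACGTCA, and no printed match overlapped another. Over all 32851 RefSeq windows of this length, 6.02% held the E-box, 3.85% its variant, 0.819% the D-box, 2.23% the ROR element, 1.05% the sterol regulatory element and 1.55% the cAMP response element. Starts of 9 of the 10 genes matched the table, in 14 windows. Pcyt2 had no window and was not searched. The sterol regulatory element appeared only in Pcyt1a, 116 bases before this start and within another, overlapping window, and the E-box variant only in Cept1, 133 bases before this start. The windows of Chka and Etnk2 held none of the 6 motifs. The printed windows were 68.0% (Chka), 65.2% (Etnk2), 71.6% (Pcyt1a) and 64.0% (Cept1) G and C, against a median of 52.4% over all windows. Over the 14 windows this share ran from 27.6% (another start of Cept1) to 75.6% (Chpt1).

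The genes were expressed over a wide range of FPKM levels, a scale that is already per length. Pemt was the highest, with a mean of 547 FPKM over the 12 livers, followed by Pcyt2 (331 FPKM), Etnk2 (177 FPKM), Chpt1 (83.6 FPKM), Lpcat3 (40.4 FPKM), Chkb (38.8 FPKM), Chka (26.1 FPKM), Pcyt1a (14.7 FPKM), Cept1 (13.2 FPKM) and Etnk1 (8.14 FPKM). Each of Pemt, Pcyt2, Etnk2 and Chpt1 exceeded the next gene of this order in 12 of 12 livers, as did Cept1 over Etnk1. The middle of the order was not settled, since Lpcat3 exceeded Chkb in 7, Chkb exceeded Chka in 9, Chka exceeded Pcyt1a in 7 and Pcyt1a exceeded Cept1 in 7 of 12 livers. In the ethanolamine branch the kinase Etnk2 and the cytidylyl transferase Pcyt2 were both above every choline branch enzyme in level, while Pcyt1a, the rate-limiting step of the choline branch, was among the lowest.

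**Figure D1:**
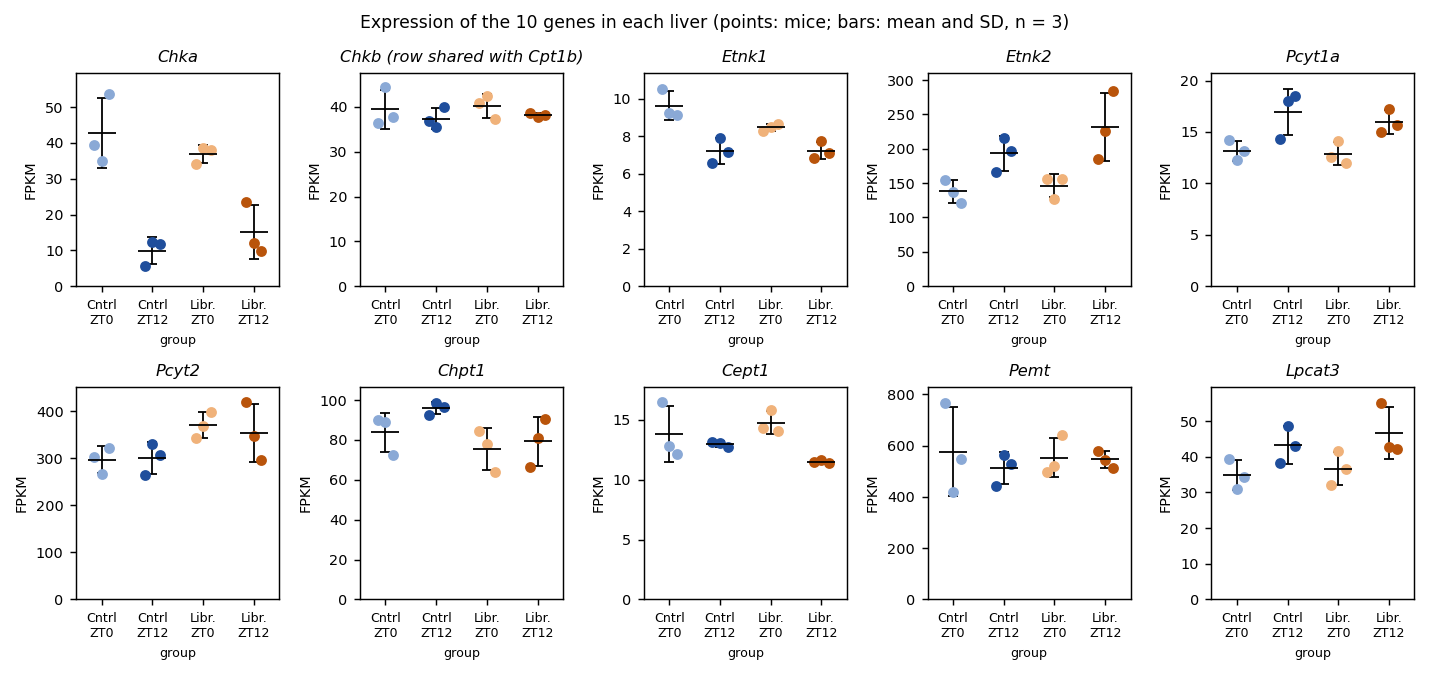
Expression of each gene in FPKM (vertical axis, from 0) in the 4 groups (horizontal axis, Libr. standing for Libramed), with points for single mice and bars for the mean and SD of 3. Chka falls from 34.0 to 53.7 FPKM at ZT0 to between 5.67 and 23.6 FPKM at ZT12, and Etnk2 lies higher in all 6 livers at ZT12.

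The question that time of day addresses is how this pathway stands at the onset of feeding compared with the end of the night. The livers at ZT12 were also nearer to the daily gavage, and the part of this was not tested. Over both treatments, 5 of the 10 genes differed between ZT12 and ZT0 (limma, adjusted p under 0.05 over all genes tested), against a background of 29.7% of all genes. Etnk2, Pcyt1a and Lpcat3 were higher at ZT12 (3 of 10, against 15.9% of all genes), and Chka and Etnk1 were lower (2 of 10, against 13.8%). The median log2 fold change of the 10 genes was -0.05, beside 0.01 over all genes tested. The values of the 6 livers at ZT0 and the 6 at ZT12 did not overlap for 4 of the 10 genes (Chka, Etnk1, Etnk2 and Pcyt1a), which was the case for 13.3% of all genes. Without the library that held muscle transcripts, 3 genes were called higher and 2 lower, the same numbers as with it.

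Among the choline kinases, which phosphorylate choline as the entry step of the branch, Chka had the largest difference of the 10 genes. In Cntrl livers Chka was 39.5, 35.1 and 53.7 FPKM at ZT0 and 5.67, 12.3 and 11.7 FPKM at ZT12. In Libramed livers it was 34.0, 38.6 and 37.9 FPKM at ZT0 and 23.6, 11.9 and 9.79 FPKM at ZT12. All livers at ZT0 were above all livers at ZT12, and the Libramed liver at 23.6 FPKM stood apart from the other ZT12 livers. The log2 fold change of FPKM + 1 was -2.05 (SE 0.289, adjusted p = 0.0102) in Cntrl and -1.32 (SE 0.281, adjusted p = 0.0267) in Libramed. Without the library with muscle transcripts the Libramed value of Chka was -1.08 (adjusted p = 0.0671), which did not pass. Over both treatments it was -1.68 (SE 0.237, adjusted p = 0.000298), with an exact stratified permutation p of 0.005, the smallest that 400 arrangements allow. Chka lay at percentile 0.178 of the log2 fold changes of all genes in this comparison.

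The Chkb row, in contrast, stayed within a narrow range. It was 36.3, 44.4 and 37.7 FPKM in Cntrl livers at ZT0 and 36.8, 35.4 and 39.9 FPKM at ZT12, and 40.9, 42.5 and 37.2 FPKM against 38.7, 37.7 and 38.1 FPKM in Libramed livers. The groups overlapped, and the log2 fold change over both treatments was -0.07 (95% interval -0.20 to 0.06). The library with muscle transcripts was at 38.1 FPKM, between the other libraries of its group. The Chka level was 1.10 ± 0.318 times the level of the joined Chkb row (SD, n = 3) in Cntrl livers at ZT0 and 0.265 ± 0.1001 times at ZT12, and 0.919 ± 0.0947 and 0.395 ± 0.189 times in Libramed livers.

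The ethanolamine kinases moved in opposite directions. Etnk2, the isoform abundant in liver, was 155, 138 and 122 FPKM in Cntrl livers at ZT0 and 166, 216 and 197 FPKM at ZT12. In Libramed livers Etnk2 was 155, 127 and 156 FPKM at ZT0 and 185, 225 and 284 FPKM at ZT12. Every ZT12 liver was above every ZT0 liver, and the highest value was in the library that held muscle transcripts. The log2 fold change over both treatments was 0.56 (SE 0.111, adjusted p = 0.00272, exact permutation p = 0.005). It was 0.48 in Cntrl (SE 0.132, adjusted p = 0.0678) and 0.64 in Libramed (SE 0.166, adjusted p = 0.0484), and the Libramed value was 0.49 (adjusted p = 0.101) without the library with muscle transcripts.

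Etnk1, the broadly expressed isoform, was the lowest of the 10 genes. It was 10.5, 9.22 and 9.15 FPKM in Cntrl livers at ZT0 and 6.57, 7.91 and 7.16 FPKM at ZT12, and 8.28, 8.48 and 8.65 FPKM against 6.84, 7.74 and 7.12 FPKM in Libramed livers. All ZT12 values were below all ZT0 values within and across treatments. The log2 fold change was -0.29 over both treatments (SE 0.0617, adjusted p = 0.00433, exact permutation p = 0.005), with -0.37 in Cntrl (adjusted p = 0.0589) and -0.20 in Libramed (adjusted p = 0.140). The Etnk2 level was 14.3 ± 0.887 times the Etnk1 level at ZT0 and 26.7 ± 1.21 times at ZT12 in Cntrl livers, and 17.3 ± 2.00 and 32.1 ± 6.92 times in Libramed livers (SD, n = 3).

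**Figure D2:**
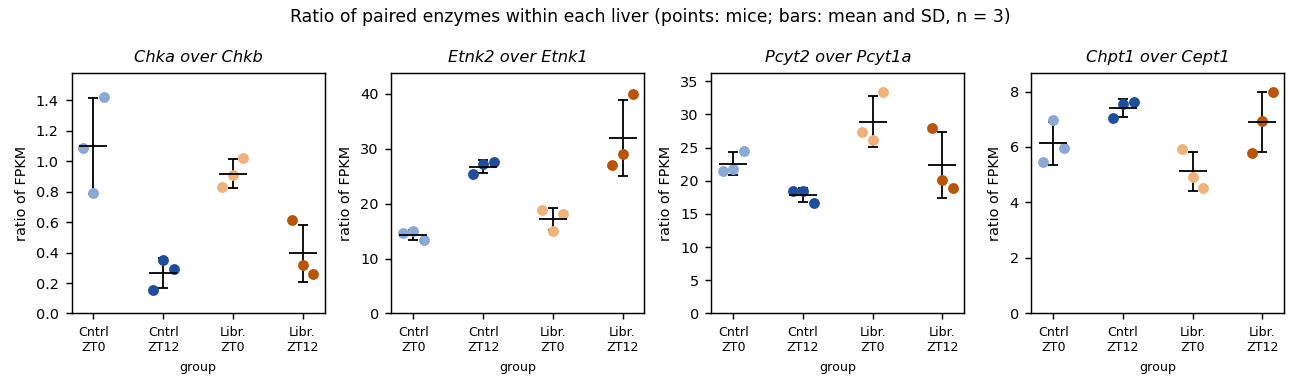
Ratio of the FPKM levels of paired enzymes (vertical axis, no unit, from 0) in each liver of the 4 groups (horizontal axis), with points for mice and bars for the mean and SD of 3. The mean Chka to Chkb ratio is 1.10 at ZT0 and 0.265 at ZT12 in Cntrl livers, and the mean Etnk2 to Etnk1 ratio is 14.3 and 26.7. The Chkb value is that of the row shared with Cpt1b.

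The cytidylyl transferases make the activated CDP-choline or CDP-ethanolamine. Pcyt1a, which makes CDP-choline, was 14.2, 12.2 and 13.1 FPKM in Cntrl livers at ZT0 and 14.3, 17.96 and 18.5 FPKM at ZT12. In Libramed livers Pcyt1a was 12.6, 14.1 and 11.98 FPKM at ZT0 and 14.97, 17.3 and 15.6 FPKM at ZT12. The groups did not overlap, but the Cntrl values came as near as 14.2 FPKM at ZT0 and 14.3 FPKM at ZT12. The log2 fold change over both treatments was 0.31 (SE 0.0721, adjusted p = 0.00671, exact permutation p = 0.005), and neither treatment alone passed the test (0.33 with adjusted p = 0.119 in Cntrl, 0.29 with adjusted p = 0.0908 in Libramed).

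Pcyt2, which makes CDP-ethanolamine, did not pass the test for time. It was 303, 267 and 322 FPKM in Cntrl livers at ZT0 and 264, 331 and 307 FPKM at ZT12, with a log2 fold change over both treatments of -0.03 (95% interval -0.23 to 0.17). The Pcyt2 level was 22.6 ± 1.69 times the Pcyt1a level at ZT0 and 17.8 ± 1.02 times at ZT12 in Cntrl livers, and 28.9 ± 3.85 and 22.4 ± 4.92 times in Libramed livers (SD, n = 3). In Libramed livers the ranges of this ratio at ZT0 (26.2 to 33.3) and ZT12 (19.0 to 28.0) overlapped.

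The phosphotransferases join the activated head group to diacylglycerol. Cept1, which accepts choline and ethanolamine, was 14.3, 15.8 and 14.1 FPKM in Libramed livers at ZT0 and 11.5, 11.7 and 11.4 FPKM at ZT12. These groups did not overlap, and the log2 fold change in Libramed was -0.33 (SE 0.0781, adjusted p = 0.0370). In Cntrl livers Cept1 was 16.5, 12.8 and 12.2 FPKM at ZT0 and 13.1, 13.0 and 12.7 FPKM at ZT12, with overlapping groups and a log2 fold change of -0.07 (95% interval -0.36 to 0.21). Over both treatments it was -0.20 (adjusted p = 0.0645, exact permutation p = 0.045), and the difference between the treatments was itself not called. The Libramed call was lost when any of the 6 Libramed libraries was left out (adjusted p 0.0736 to 0.104), with values between -0.36 and -0.28. Without the library with muscle transcripts Cept1 was at -0.32 (adjusted p = 0.0957).

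Chpt1, the phosphotransferase for choline alone, was 90.1, 89.0 and 72.6 FPKM in Cntrl livers at ZT0 and 92.5, 98.6 and 96.5 FPKM at ZT12. The Cntrl groups did not overlap, but the log2 fold change of 0.20 did not pass (adjusted p = 0.272). In Libramed livers Chpt1 was 84.6, 77.8 and 63.9 FPKM at ZT0 and 66.4, 80.8 and 90.5 FPKM at ZT12, with overlap and a log2 fold change of 0.07 (adjusted p = 0.800). The Chpt1 to Cept1 ratio was 6.13 ± 0.767 and 7.40 ± 0.312 at ZT0 and ZT12 in Cntrl livers, and 5.12 ± 0.716 and 6.90 ± 1.09 in Libramed livers (SD, n = 3).

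Pemt, the methyltransferase of the hepatocyte route, varied between mice more than with time. It was 766, 419 and 547 FPKM in Cntrl livers at ZT0 and 444, 565 and 528 FPKM at ZT12, and 497, 521 and 640.3 FPKM against 580.4, 543 and 515 FPKM in Libramed livers. The Cntrl ZT0 group alone spanned the values of all other groups, and the log2 fold change over both treatments was -0.07 (95% interval -0.35 to 0.21). Lpcat3, which loads polyunsaturated chains onto lysophosphatidylcholine, was 39.3, 31.0 and 34.4 FPKM in Cntrl livers at ZT0 and 38.2, 48.8 and 43.1 FPKM at ZT12. In Libramed livers Lpcat3 was 32.1, 41.5 and 36.5 FPKM at ZT0 and 55.1, 42.8 and 42.1 FPKM at ZT12. The Libramed groups did not overlap and the Cntrl groups did. The log2 fold change of Lpcat3 over both treatments was 0.32 (SE 0.0941, adjusted p = 0.0227, exact permutation p = 0.015), and the call was lost without Libramed ZT0 replicate 1 (0.28, adjusted p = 0.0522) or Cntrl ZT12 replicate 2 (0.28, adjusted p = 0.0545).

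**Figure D3:**
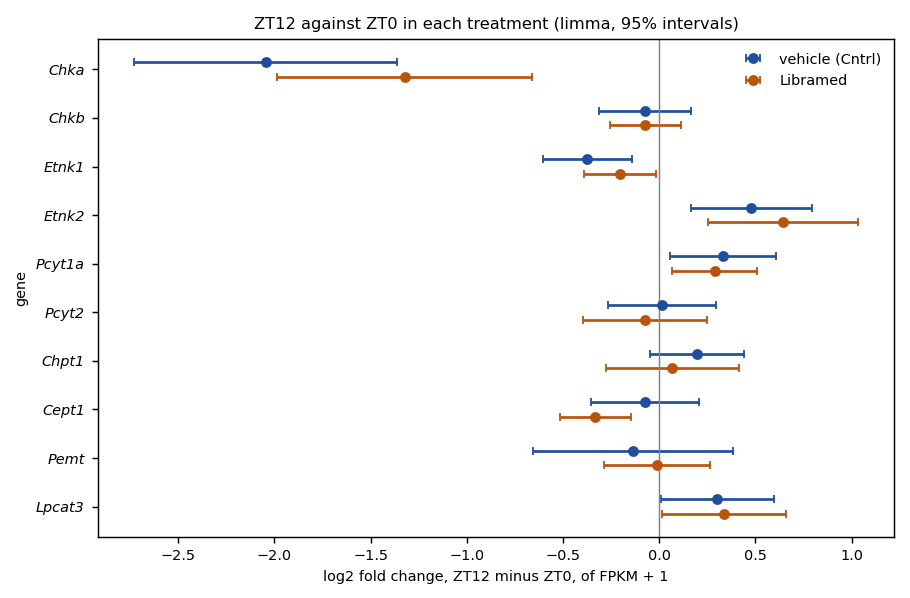
Log2 fold change of FPKM + 1 from ZT0 to ZT12 (horizontal axis) for each gene (vertical axis) in Cntrl and Libramed livers, with limma 95% intervals, n = 3 livers in each group. Chka lies farthest from 0 at -2.05 and -1.32, Etnk2, Pcyt1a and Lpcat3 lie above 0 in both treatments, and Pcyt2, Chkb, Chpt1 and Pemt cover 0 in both.

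Within each treatment, fewer genes passed. In Cntrl, 1 of the 10 genes was called (Chka, lower), against 10.4% of all genes, 5.62% higher and 4.78% lower. In Libramed, 3 of the 10 were called (Etnk2 higher, Chka and Cept1 lower), against 12.4% of all genes, 7% higher and 5.36% lower. At an unadjusted p under 0.05, the threshold that the study used, 3 genes were higher and 2 lower in Cntrl (27.4% of all genes, 14.4% higher and 13% lower), and 3 higher and 3 lower in Libramed (29.2% of all genes, 15.7% higher and 13.4% lower). The ZT0 and ZT12 groups did not overlap for 5 of the 10 genes in Cntrl (33.2% of all genes) and for 6 in Libramed (34.9% of all genes). The calls for Chka and Etnk2 in Libramed were each lost when any Libramed library other than ZT12 replicate 1 was left out, with log2 fold changes that stayed between -1.68 and -1.08 for Chka and between 0.49 and 0.79 for Etnk2. Without Libramed ZT12 replicate 1, the liver with the high Chka value, Chka was at -1.68 (adjusted p = 0.00235). A call in Libramed and not in Cntrl does not show that the treatments differ.

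Libramed was compared with vehicle at each time, the question being whether the product shifts this pathway in the liver on HFD. None of the 10 genes passed at ZT0 or at ZT12 by limma after adjustment, and no gene of the whole table did (0% at either time). At ZT0, 1 of the 10 had an unadjusted p under 0.05 and was higher, against 9.23% of all genes, or 3.42% in that direction. At ZT12 it was 2 of the 10, both lower, against 6.74% of all genes, or 3.67% in that direction.

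Cell type markers were also compared between the treatments, and none of those tested passed after limma adjustment. At ZT0 the 5 tested macrophage markers all had negative fold changes with Libramed (median log2 fold change -0.48, 3 of 5 at an unadjusted p under 0.05, 0 after limma adjustment), and the sum over 8 listed markers was 15.99 to 28.5 FPKM with Libramed and 28.8 to 35.9 FPKM with vehicle. Over both times the 8 hepatocyte markers all had positive fold changes (median 0.17, 3 of 8 at an unadjusted p under 0.05, 0 after limma adjustment), with sums of 65628 to 80942 FPKM against 57351 to 68672 FPKM at ZT0 and of 67399 to 79153 FPKM against 64177 to 71465 FPKM at ZT12. At the single times 3 of these 8 markers had negative values at ZT0 and 2 at ZT12. Tat was at -0.64 at ZT0 and at 0.96 at ZT12, with groups that did not overlap at either time. The sums show little of this, since Apoa2 had a mean of 28092 FPKM over the 12 livers and Tat 686 FPKM. The 5 endothelial and the 5 stellate cell markers also had positive values over both times, with 1 of 5 at an unadjusted p under 0.05 in each list, and the 4 cholangiocyte markers had negative values, with 1 of 4 at that level. Over both times 3.82% of all genes were higher and 6.28% lower at that level. The part of these markers in the Libramed values that follow was not tested.

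The gene of the 10 at an unadjusted p under 0.05 at ZT0 was Pcyt2, with 343, 369 and 399 FPKM in Libramed livers and 303, 267 and 322 FPKM in Cntrl livers. All Libramed livers were above all Cntrl livers, as for 5.19% of all genes at ZT0, with a log2 fold change of 0.32 (SE 0.113, unadjusted limma p = 0.0252, adjusted p = 0.513) and an exact permutation p of 0.1, the smallest that 3 against 3 allows. At ZT12 Pcyt2 was 419, 348 and 296 FPKM in Libramed livers against 264, 331 and 307 FPKM, with overlap and a log2 fold change of 0.23 (95% interval -0.11 to 0.57). Over both times the value for Pcyt2 was 0.27 (SE 0.0915, exact permutation p = 0.02), which did not hold after adjustment over all genes (limma adjusted p = 0.377).

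At ZT12 both phosphotransferases had lower values with Libramed. Chpt1 was 66.4, 80.8 and 90.5 FPKM with Libramed and 92.5, 98.6 and 96.5 FPKM with vehicle, a log2 fold change of -0.28 (SE 0.115, unadjusted limma p = 0.0446, adjusted p = 0.729, exact permutation p = 0.1). Cept1 was 11.5, 11.7 and 11.4 FPKM against 13.1, 13.0 and 12.7 FPKM, a log2 fold change of -0.16 (SE 0.0646, unadjusted limma p = 0.0422, adjusted p = 0.729, exact permutation p = 0.1). Neither pair of groups overlapped, which held for 13.1% of all genes at this time and, with Libramed lower, for 7.26%. Over both times Chpt1 was at -0.22 (exact permutation p = 0.055, limma adjusted p = 0.475) and Cept1 at -0.03 (95% interval -0.20 to 0.14).

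Chka had the widest interval of the comparison at ZT12. Its log2 fold change with Libramed was 0.53 (95% interval -0.35 to 1.42, exact permutation p = 0.5), and leaving out a library moved it between 0.18 and 0.78. Chka at ZT0 was at -0.19 (95% interval -0.56 to 0.19). Etnk1 was lower in every Libramed liver at ZT0 (8.28 to 8.65 FPKM) than in any Cntrl liver (9.15 to 10.5 FPKM), with a log2 fold change of -0.16 (unadjusted limma p = 0.0986, adjusted p = 0.628, exact permutation p = 0.1). Groups that did not overlap at ZT0 were found for 15.1% of all genes, and with Libramed lower for 9.94%. The remaining genes lay between -0.16 and 0.25 at both times, with 95% intervals that covered 0. Over both times, none of the 10 genes passed after adjustment (limma, 0.0204% of all genes did), and at an unadjusted p under 0.05 it was Pcyt2 higher and Chpt1 lower, against 10.1% of all genes, 3.82% higher and 6.28% lower.

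**Figure D4:**
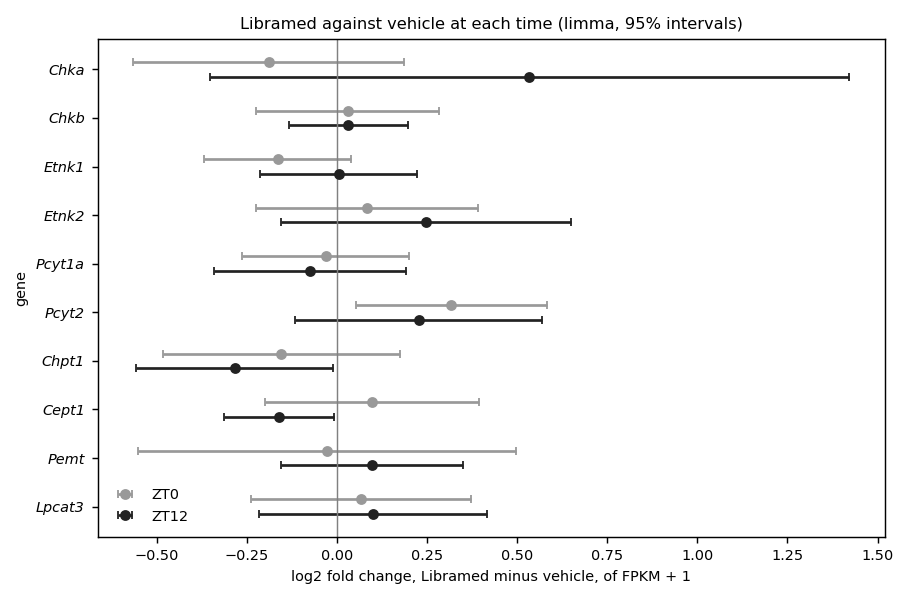
Log2 fold change of FPKM + 1 with Libramed against vehicle (horizontal axis) for each gene (vertical axis) at ZT0 and ZT12, with limma 95% intervals, n = 3 livers in each group. The intervals cover 0 except for Pcyt2 at ZT0 (0.32) and for Chpt1 (-0.28) and Cept1 (-0.16) at ZT12, none of which passed the adjusted test.

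The interaction asks whether the time difference itself was changed by Libramed. None of the 10 genes passed in limma, either adjusted or at an unadjusted p under 0.05 (0% and 6.63% of all genes). The largest value was that of Chka, 0.72 (SE 0.445, exact permutation p = 0.21), with a 95% interval from -0.25 to 1.70. For Cept1 it was -0.26 (95% interval -0.57 to 0.05, exact permutation p = 0.11), and for Etnk1 0.17 (95% interval -0.09 to 0.43, exact permutation p = 0.165). These permutations exchanged treatments within each time, so their null is no Libramed effect at either time, not the absence of an interaction alone.

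The wider pathway was taken from a list of 66 genes that feed, use or break down these phospholipids, of which 55 were tested. Over both treatments 18 of the 55 were called higher and 9 lower at ZT12 (limma), a share to be read beside 29.7% of all genes, with a median log2 fold change of 0.08. Within Cntrl livers 11 of the 55 were called higher and 8 lower, beside 5.62% and 4.78% of all genes, and within Libramed livers 9 and 7, beside 7% and 5.36%. These counts were not taken without the library that held muscle transcripts. No gene of the list was called for Libramed at either time, over both times or for the interaction, where 4 of the 55 genes each had an unadjusted p under 0.05. Over all genes that share was 9.23% at ZT0, 6.74% at ZT12, 10.1% over both times and 6.63% for the interaction.

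Diacylglycerol supply held the largest change of the list. Lpin1, a phosphatidate phosphatase that makes diacylglycerol, was 5.59 ± 0.464 FPKM at ZT0 and 40.6 ± 10.01 FPKM at ZT12 in Cntrl livers and 7.64 ± 2.11 and 55.2 ± 18.8 FPKM in Libramed livers (SD, n = 3), a log2 fold change of 2.65 over both (limma adjusted p = 1.93e-06). Agpat1, which makes phosphatidate, was higher by 0.53 (adjusted p = 0.000959). Of the 7 genes tested in this group, 3 were called higher and 0 lower. In the group of the phosphatidylserine route and the remaining ethanolaminephosphotransferase, Selenoi (listed under its older symbol Ept1) was lower, from 9.40 ± 1.44 to 5.95 ± 0.519 FPKM in Cntrl and from 9.82 ± 0.254 to 5.33 ± 0.354 FPKM in Libramed livers (log2 fold change -0.67, adjusted p = 5.41e-05). Selenoi was the only one of 4 called there, and Ptdss2, a phosphatidylserine synthase, was at 0.20 (adjusted p = 0.0529).

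The supply and use of S-adenosylmethionine, the methyl donor of Pemt, held 4 genes called higher and 2 lower of 9. Ahcy, which removes the product S-adenosylhomocysteine, rose from 126 ± 4.19 to 215 ± 14.1 FPKM in Cntrl livers and from 144 ± 18.4 to 236 ± 9.61 FPKM in Libramed livers (log2 fold change 0.74, adjusted p = 1.46e-05). Cbs, which takes homocysteine out of the cycle, fell from 326 ± 44.3 to 113 ± 14.8 FPKM and from 306 ± 31.4 to 142 ± 6.91 FPKM (log2 fold change -1.31, adjusted p = 4.99e-06). In choline oxidation and betaine use, 2 of 6 were called higher and 1 lower, with Sardh, the sarcosine dehydrogenase, at 0.50 (adjusted p = 0.000116) and Bhmt, which methylates homocysteine with betaine, at -0.40 (adjusted p = 0.00434). In choline uptake 1 of 4 was called, Slc44a3 at 0.46 (adjusted p = 0.0179), whereas Slc44a2, a choline transporter, was at -0.19 (adjusted p = 0.0627).

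Breakdown of the phospholipids and of their head groups held 3 genes called higher and 3 lower of 11. Gde1, a glycerophosphodiesterase, rose from 47.3 ± 7.81 to 83.4 ± 7.02 FPKM in Cntrl and from 37.1 ± 5.24 to 79.2 ± 5.95 FPKM in Libramed livers (log2 fold change 0.95, adjusted p = 3.41e-05). Pnpla7, a lysophospholipase, fell from 48.2 ± 1.32 to 28.3 ± 1.67 FPKM and from 48.0 ± 1.59 to 28.3 ± 5.89 FPKM (log2 fold change -0.76, adjusted p = 5.02e-05). A further pair was chosen after the values were seen, for the size of their change. Gpcpd1, which releases choline from glycerophosphocholine, was at 1.73 (adjusted p = 0.000204) and Phospho1, a phosphatase of phosphocholine and phosphoethanolamine, at -1.26 (adjusted p = 0.000176). Among acyl chain remodelling genes 3 of 7 were called higher and 1 lower, with Pla2g6, a calcium-independent phospholipase, at 0.70 (adjusted p = 0.00189) and Pla2g12b, a secreted phospholipase relative, at -0.36 (adjusted p = 0.000102).

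Transport of phosphatidylcholine held 2 genes called higher and 1 lower of 7. Pctp, the phosphatidylcholine transfer protein, was 44.7 ± 7.55 FPKM at ZT0 and 82.3 ± 8.97 FPKM at ZT12 in Cntrl livers, and 62.5 ± 3.42 and 69.9 ± 3.13 FPKM in Libramed livers (SD, n = 3). Its log2 fold change with time was 0.87 in Cntrl (limma adjusted p = 0.0149) and 0.16 in Libramed (adjusted p = 0.239), and the difference between them, -0.71 (SE 0.167), had an unadjusted limma p of 0.00126 that did not hold after adjustment over all genes (adjusted p = 0.519). Atp8b1, a flippase of the bile canaliculus, was at -0.43 over both treatments (adjusted p = 0.000200).

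**Figure D5:**
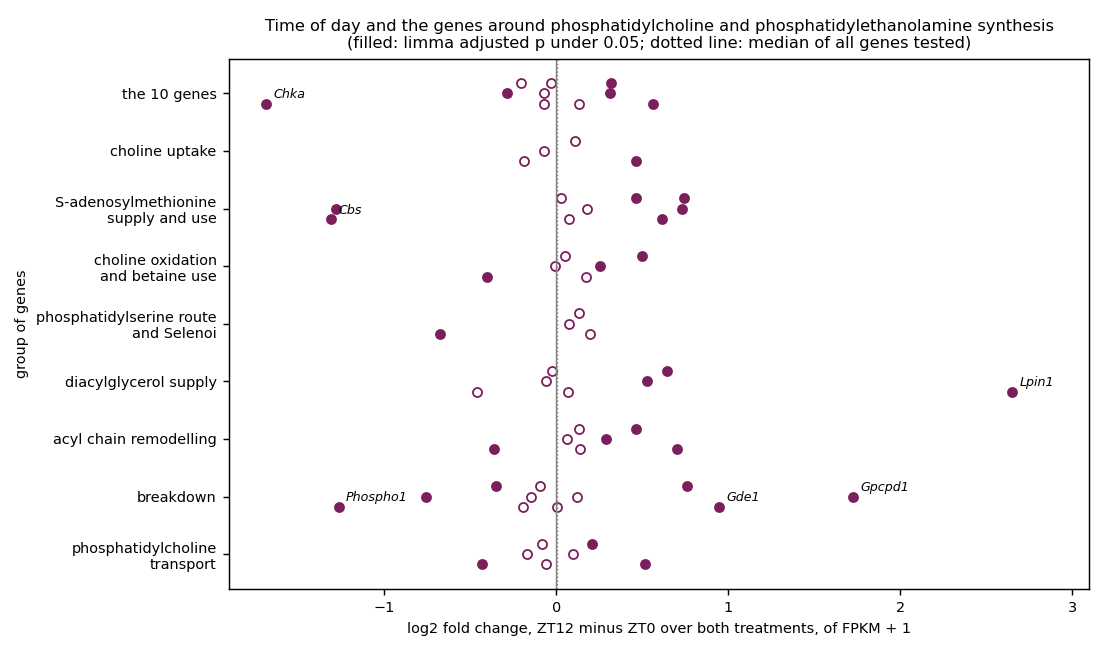
Log2 fold change of FPKM + 1 from ZT0 to ZT12 over both treatments (horizontal axis) for the 10 genes and the 55 tested genes of the wider list, by role (vertical axis), filled where the limma adjusted p is under 0.05, with a dotted line at the median of all genes tested. Lpin1 lies farthest to the right at 2.65 and Chka farthest to the left at -1.68.

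The genes whose pattern over the 12 livers was most like that of Chka, the gene with the largest time difference of the 10, were Tubb2a (Pearson r 0.979 of log2 FPKM + 1), Slc30a10 (0.978), Serpinh1 (0.969), Adck3 (0.960) and Pxdc1 (0.960). The correlations are a description over 12 livers that share their time and treatment groups, and no test was made. Tubb2a, a tubulin, was at 104 FPKM in Cntrl livers at ZT0 and 19.5 FPKM at ZT12, and at 106 and 29.2 FPKM in Libramed livers. Slc30a10, a manganese exporter, was at 10.7 and 4.31 FPKM in Cntrl and 9.47 and 5.85 FPKM in Libramed livers. All 5 were lower at ZT12 in both treatments by their group means.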

How the data were processed

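Liver RNA of 12 mice was sequenced. The deposited FPKM table was made by the authors; per the labels they used the TruSeq RNA v2 kit, and per the submitters' processing notes TopHat and Cuffnorm with mm10 (GRCm38). The methods of the study name another aligner and RPKM, so the exact steps behind the FPKM values are not settled. No replicates were pooled and depth was not given. Of 24138 table lines, 289 repeated a symbol (only the line of larger mean was used), and 185 tested rows joined several symbols.

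Values were tested as log2(FPKM + 1) with limma 3.58.1 in R 4.3.3 (variance prior with a mean trend, two-sided, Benjamini-Hochberg adjustment over all genes) where the mean over all samples reached 1 FPKM. Differences between 2 groups were fitted on their 6 samples, and the differences over both treatments or times and the interaction on all 12. Fold changes are on the log2(FPKM + 1) scale, which understates low genes. Exact two-sided permutation tests (20 arrangements for 3 against 3, smallest p 0.1, and 400 within strata, smallest p 0.005) were made for each of the 10 genes in 7 comparisons. The comparisons share samples, so their values are not independent of each other. The labels call the samples biological replicates. The fits were tested on simulated data.

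The 10 genes and the gene lists were chosen with earlier results of these data known. Named beyond them were the 2 genes with the smallest p for time over both treatments in each of 8 role groups of the wider list, any gene of it called for Libramed or the interaction, and the 5 genes most like the gene that moved most. Alternatives were other pseudocounts, filters, scalings, variance priors and call rules, a replicate block, all 12 samples in the fit, and each library left out in turn. The wider list was not read with libraries left out.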

Additional observations from a re-analysis of the deposited data

How the results depend on the processing

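Of 530 log2 fold changes of the 10 genes under alternatives other than leaving out a library, 516 kept their direction and their side of the threshold, 7 lost a call, 3 gained a call and 4 changed sign, all 4 of them near 0. The changes of sign were Pcyt2 with time in Cntrl under quantile normalization (-0.034), Pemt with Libramed at ZT0 under median-ratio scaling (0.00051) and quantile normalization (0.0042), and the interaction of Chkb under median-ratio scaling (-0.010).

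Counts of called genes depended on the rule. At an unadjusted p under 0.05, time in Cntrl gave 3 of the 10 genes higher and 2 lower, time in Libramed 3 higher and 3 lower, Libramed at ZT0 1 higher, Libramed at ZT12 2 lower, and Libramed over both times 1 higher and 1 lower. Time in Cntrl gave 2 lower (Chka and Etnk1) with a minimum mean of 5 FPKM or with all 12 samples in the fit. Over all genes, 398 of 6151 and 734 of 9806 were lower in these fits, against 469 of 9806 in the main fit. Time in Libramed gave 0 higher, in place of Etnk2, with a pseudocount of 0.1, no minimum FPKM or quantile normalization, and 1 lower with no minimum. Over all genes, 680 of 9806, 367 of 17066 and 619 of 9806 were higher in these fits, against 686 of 9806 in the main fit. With no minimum 272 of 17066 were lower, against 526 of 9806. In the wider list, no minimum (17066 genes tested) left 4 higher and 3 lower with time in Cntrl and 5 higher and 4 lower in Libramed. Over all genes it left 259 higher and 256 lower in Cntrl, and 367 and 272 in Libramed. A minimum of 5 FPKM, which tests fewer genes, left 5 lower with time in Cntrl, 4 lower in Libramed and 5 lower over both treatments. Of all 6151 genes then tested, 398, 386 and 865 were lower in these comparisons. Over both treatments Cept1 passed under quantile normalization (-0.24, adjusted p = 0.0366).

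The replicate numbers of the labels did not pair the samples throughout. The correlations of same-numbered samples ran from -0.26 to -0.030 between the Cntrl groups and from -0.099 to 0.26 between the Libramed groups. Between treatments they ran from -0.28 to 0.050 at ZT0 and from -0.21 to -0.0035 at ZT12. They ran from -0.035 to 0.34 between Libramed ZT0 and Cntrl ZT12, and from -0.19 to 0.12 between Cntrl ZT0 and Libramed ZT12. With the number as a replicate block, the 10 genes gave 0 higher and 0 lower with time in Libramed, and calls over all genes went from 1020 to 279 in Cntrl and from 1212 to 709 in Libramed. Not every sample correlated best with its own number.

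With 1 library left out, 529 of 600 values kept direction and call, 18 lost a call, 2 gained one and 51 changed sign, the last without any call. The counts for time in Libramed ran from 0 to 1 higher and from 0 to 1 lower. Over all genes they ran from 304 to 583 higher and from 231 to 431 lower, against 686 and 526 with all libraries. The values that changed sign ran as follows. For time in Cntrl they ran from -0.13 to 0.012 for Chkb, -0.060 to 0.11 for Pcyt2, -0.15 to 0.051 for Cept1 and -0.34 to 0.090 for Pemt. For time in Libramed they ran from -0.20 to 0.047 for Pcyt2, -0.045 to 0.19 for Chpt1 and -0.082 to 0.10 for Pemt, and for time over both from -0.081 to 0.030 for Pcyt2 and -0.16 to 0.034 for Pemt. For Libramed at ZT0 they ran from -0.025 to 0.12 for Chkb, -0.0029 to 0.18 for Etnk2, -0.093 to 0.020 for Pcyt1a, -0.24 to 0.20 for Pemt and -0.023 to 0.16 for Lpcat3. For Libramed at ZT12 they ran from -0.0049 to 0.079 for Chkb, -0.052 to 0.066 for Etnk1, -0.00084 to 0.17 for Pemt and -0.022 to 0.19 for Lpcat3. For Libramed over both times they ran from -0.024 to 0.29 for Chka, -0.081 to 0.0099 for Cept1 and -0.050 to 0.14 for Pemt. For the interaction they ran from -0.083 to 0.057 for Chkb, -0.15 to 0.020 for Pcyt1a, -0.22 to 0.031 for Pcyt2, -0.10 to 0.33 for Pemt and -0.089 to 0.12 for Lpcat3. The cause of these changes was not tested. Depth is not known here, and 3 livers a group limit the precision of each value.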

Other observations

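Other genes around the methyl donor and the head groups were described after their values were seen. Mat1a, the liver S-adenosylmethionine synthase, was 833 ± 136 FPKM at ZT0 and 1136 ± 193 FPKM at ZT12 in Cntrl livers and 648 ± 145 and 1100.2 ± 113 FPKM in Libramed livers (SD, n = 3), a log2 fold change of 0.61 over both treatments (limma adjusted p = 0.00538). Gamt, which uses the methyl donor to make creatine, was 258 ± 50.7 and 444 ± 19.0 FPKM in Cntrl livers and 336 ± 16.2 and 534 ± 76.9 FPKM in Libramed livers, a log2 fold change of 0.73 (adjusted p = 0.000226).

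Etnppl, the lyase that breaks down phosphoethanolamine, was 19.3 ± 2.04 FPKM at ZT0 and 35.3 ± 3.54 FPKM at ZT12 in Cntrl livers (log2 fold change 0.84, adjusted p = 0.00925). In Libramed livers Etnppl was 23.7 ± 9.29 and 40.2 ± 22.9 FPKM, a log2 fold change of 0.68 with a far wider spread between mice that did not pass (adjusted p = 0.345). The Libramed values at ZT12 were 23.2, 31.0 and 66.3 FPKM, the last of them in the library that held muscle transcripts. Lpin2, the relative of Lpin1 that also makes diacylglycerol, was 26.8 ± 4.90 and 45.4 ± 6.78 FPKM in Cntrl livers and 32.0 ± 6.30 and 46.9 ± 5.03 FPKM in Libramed livers, a log2 fold change of 0.64 over both treatments (adjusted p = 0.00146).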
